A study of Mus musculus with 3 samples.

Results

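Cadherins and protocadherins are cell adhesion proteins whose transcripts were followed here as the genes with a symbol of the form Cdh plus a number or beginning with Pcdh. The rule found 58 of the 14933 genes in the deposited table of filtered cells. The library matrices list 93 such entries among 27998, and the table of neuronal cells holds 11 among 7174. The cells were FACS-sorted tdTomato+ cells of the medial prefrontal cortex (mPFC) of C57Bl6 mice at P5, profiled by 10X Chromium scRNA-seq. There was 1 library for each genotype. The wild-type library was labelled Rbp4cre::tdTomato, the Tbr1 layer5 heterozygous library Tbr1f/+::Rbp4cre::tdTomato and the Tbr1 layer5 homozygous library Tbr1f/f::Rbp4cre::tdTomato. The wild-type controls therefore carried Rbp4-cre and the tdTomato reporter too. Rbp4-cre drives recombination in layer 5 projection neurons and removes exons 2 and 3 of the floxed Tbr1 allele, which encode the DNA-binding T-box. How many animals went into a library was not given in the sources used here.

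Cadherins bind one another across the gap between cells in the presence of calcium, and their cytoplasmic tails reach the actin cytoskeleton through catenins. Protocadherins form a larger group with longer extracellular parts. Nonclustered protocadherins, such as Pcdh10 and Pcdh17, act in axon growth and cell sorting, and some bind the WAVE actin-regulating complex. Clustered protocadherins (Pcdha, Pcdhb and Pcdhg) are chosen combinatorially in single neurons and serve self-recognition. In cortex both families take part in neuronal migration, axon tracts and synapses, and other members form the junctions of vessels and glia.

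Cell groups were taken from the lists of the authors and compared within each library. Typical neuronal cells were those the study kept for its differential expression comparison, atypical neuronal cells were 2 clusters it set apart, and the remaining filtered cells lay outside the neuronal table. The wild-type library had 1778 typical cells, the heterozygous 5357 and the homozygous 3935, with 3670646, 10418228 and 6074494 unique molecular identifiers (UMIs). Atypical cells numbered 304, 107 and 462. There were 2873, 1398 and 1182 cells outside the neuronal table. Runs of 3 values follow this order of libraries, from wild-type through heterozygous to homozygous, and where only the mutant libraries are set against the wild-type, their order is stated. Levels are UMIs of a gene per 1000000 UMIs of the cell group (CPM). Since the kit counts 3′ ends, CPM does not grow with transcript length. Intervals are exact 95% intervals, Poisson for a level and conditional binomial for a log2 ratio, and they cover counting error only. Because a genotype was 1 library, genotypes were not tested and cannot be told apart from their libraries.

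Typical cells were checked against their markers. Tbr1 was at 27.5, 30.7 and 22.4 CPM, and 3′ counts need not show a loss of exons 2 and 3. The sum of 8 excitatory neuron markers was 2888, 3553 and 4201 CPM in typical cells against 896, 2595 and 1752 CPM outside the neuronal table. Most of that sum was Nrgn, at 1692, 2062 and 2722 CPM in typical cells and 454, 1607 and 1068 CPM outside the table. Barcodes with at least 100 and under 500 UMIs, taken as empty droplets, held 1749, 2463 and 2745 CPM of the same 8 markers. Typical cells also held 10685, 9913 and 10882 CPM of 8 astroglial markers, near the 10529, 11227 and 11436 CPM of the empty droplets. The median typical cell had 1901, 1743 and 1375 UMIs. Libraries shared 140 barcodes among 17396 cells, and random draws from 737280 barcodes would give 136.

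The families differed widely in how many UMIs they had. The 23 annotated Cdh entries had a median of 240 UMIs over all barcodes of the 3 libraries, and 15 of them were in the filtered table. The 12 nonclustered Pcdh genes had a median of 1327 UMIs and were all in that table. Clustered entries were sparse. The median was 11 UMIs for 14 Pcdha entries, 75 for 22 Pcdhb entries and 19 for 22 Pcdhg entries, of which 3, 19 and 9 were in the filtered table. No clustered gene was in the neuronal table.

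**Figure D1:**
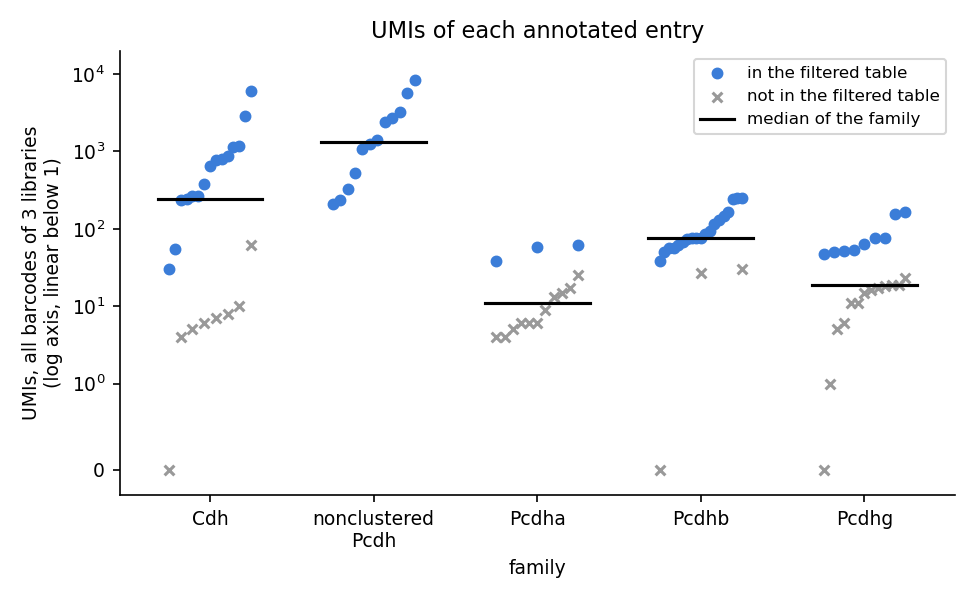
UMIs of each annotated cadherin or protocadherin entry over all barcodes of the 3 libraries (log axis, linear below 1), by family. Circles are entries in the filtered table, crosses are entries outside it and lines are family medians, from 1327 UMIs for nonclustered Pcdh to 11 for Pcdha.

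How clustered genes are counted bears on these values. In the GENCODE vM21 annotation of GRCm38, every transcript of 14 of 14 Pcdha genes shares its last exon with another gene of its cluster, as do those of 20 of 22 Pcdhg genes. The same holds for 1 of 22 Pcdhb genes, of which 21 have a single exon, and for none of the 23 Cdh or 12 nonclustered Pcdh genes. Reads in a shared 3′ exon cannot be assigned to 1 gene, so the levels of Pcdha and Pcdhg genes are uncertain. In typical cells the Pcdha genes summed to 1.91, 1.44 and 0.658 CPM by library. The Pcdhg genes summed to 4.90, 3.07 and 2.14 CPM, and the Pcdhb genes to 11.2, 12.6 and 12.5 CPM. No clustered gene reached a level at which single libraries could be compared.

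Few members were well expressed in typical neuronal cells. A mean of at least 20 CPM over the libraries was reached by 6 members (10.3%), against 28.5% of all genes, and these 6 held 67.4% of the member UMIs. Another 9 members lay at 5 to 20 CPM, 12 at 1 to 5 CPM and 31 under 1 CPM. One UMI was worth 0.272, 0.0960 and 0.165 CPM in typical cells. All 58 members together took 337, 320 and 348 CPM. The 15 Cdh genes took 101, 102 and 99.3 CPM of these, and the 12 nonclustered Pcdh genes 218, 201 and 234 CPM.

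Promoters are shown for Pcdh17 and Pcdh10, the members with the highest levels in typical cells, and for Pcdh9, the member that lay at least 2-fold higher in CPM outside the neuronal table in every library, though not with TMM or DESeq2 scaling factors (values below). The sequences are from RefSeq on GRCm38.p6, each 300 bases long, 5′ to 3′ on the strand of the gene. Lower case marks the 250 bases before the annotated start and capitals the 50 bases from it. They lie at chr14:84443313-84443612 on the plus strand, chr3:45378148-45378447 on the plus strand and chr14:93890630-93890929 on the minus strand.
Pcdh17: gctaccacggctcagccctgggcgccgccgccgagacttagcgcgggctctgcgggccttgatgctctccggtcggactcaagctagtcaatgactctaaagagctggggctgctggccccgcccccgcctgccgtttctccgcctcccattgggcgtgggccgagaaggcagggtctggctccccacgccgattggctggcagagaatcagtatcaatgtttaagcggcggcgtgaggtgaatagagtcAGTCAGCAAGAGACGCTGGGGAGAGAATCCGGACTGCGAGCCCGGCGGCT
Pcdh10: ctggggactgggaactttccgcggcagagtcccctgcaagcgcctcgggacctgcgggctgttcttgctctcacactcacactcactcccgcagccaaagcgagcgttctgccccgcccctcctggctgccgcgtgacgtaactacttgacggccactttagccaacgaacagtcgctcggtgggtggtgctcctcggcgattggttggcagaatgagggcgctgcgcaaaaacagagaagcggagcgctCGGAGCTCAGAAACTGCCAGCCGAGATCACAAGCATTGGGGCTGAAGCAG
Pcdh9: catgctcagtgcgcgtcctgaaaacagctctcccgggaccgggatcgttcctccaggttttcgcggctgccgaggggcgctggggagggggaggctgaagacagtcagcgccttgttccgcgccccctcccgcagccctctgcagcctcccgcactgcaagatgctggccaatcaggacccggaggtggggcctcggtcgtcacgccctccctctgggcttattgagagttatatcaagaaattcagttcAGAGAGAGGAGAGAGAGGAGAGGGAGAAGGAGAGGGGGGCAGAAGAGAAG
These windows have a GC content of 65.0, 62.3 and 62.7%, against a median of 52.7% over 32851 promoters of the same length. The motif search left out members on the chromosome of Cdh2, Pcdh1, Pcdh12 and the clustered protocadherins. The shares of all promoters had no such limit. Since Tbr1 is a T-box factor, the letters AGGTGTGA were searched on both strands. They occurred in 0 of 22 promoters of the 19 other member genes with an entry and in 1.28% of all promoters. The shorter core GGTGTG, which lies within that motif, was found for 2 member genes, Cdh20 and Cdh7, and in 19% of all promoters. The E-box CAGATG was found for Cdh7 and in 17.2% of all promoters.

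Among classical cadherins, Cdh2 was the most abundant in typical cells. Cdh2, or N-cadherin, holds together radial glia and neuronal contacts. Its level was 39.8 CPM (33.6 to 46.8), 37.4 CPM (33.8 to 41.3) and 33.4 CPM (29.0 to 38.3). The 3 intervals overlapped. Cdh13, or T-cadherin, which is anchored by a lipid and has no cytoplasmic tail, lies at chr8:118283733-119324921. It was at 22.6 CPM (18.0 to 28.0), 19.6 CPM (17.0 to 22.5) and 20.6 CPM (17.1 to 24.5), again with overlapping intervals.

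Pcdh17 (chr14:84443563-84539002) led all members. Its level was 67.8 CPM (59.7 to 76.8), 54.8 CPM (50.4 to 59.5) and 70.6 CPM (64.1 to 77.6), the heterozygous library being the lowest. Pcdh10 (chr3:45378398-45435623), which with Pcdh17 belongs to the protocadherins that can bind the WAVE complex, was at 50.4, 46.4 and 46.9 CPM. Its intervals of 43.4 to 58.2, 42.3 to 50.7 and 41.6 to 52.7 CPM overlapped. Pcdh11x (chrX:120290259-120910619) was at 28.3 CPM (23.2 to 34.3), 35.0 CPM (31.5 to 38.8) and 40.8 CPM (35.9 to 46.2), so that the wild-type and homozygous intervals did not overlap. Pcdh7 (chr5:57717967-58133230) was at 19.9 CPM (15.6 to 25.0), 21.1 CPM (18.4 to 24.1) and 24.4 CPM (20.6 to 28.6), with overlapping intervals. The members next to the 20 CPM limit were Pcdh7, with a mean of 21.8 CPM, and Cdh13, with 20.9 CPM, above it, and Pcdh9, with 17.7 CPM, and Pcdh19, with 10.3 CPM, below it. Pcdh9 and Pcdh19, a gene mutated in a form of epilepsy, were at 19.3, 16.3 and 17.5 CPM and at 9.26, 8.73 and 13.0 CPM.

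**Figure D2:**
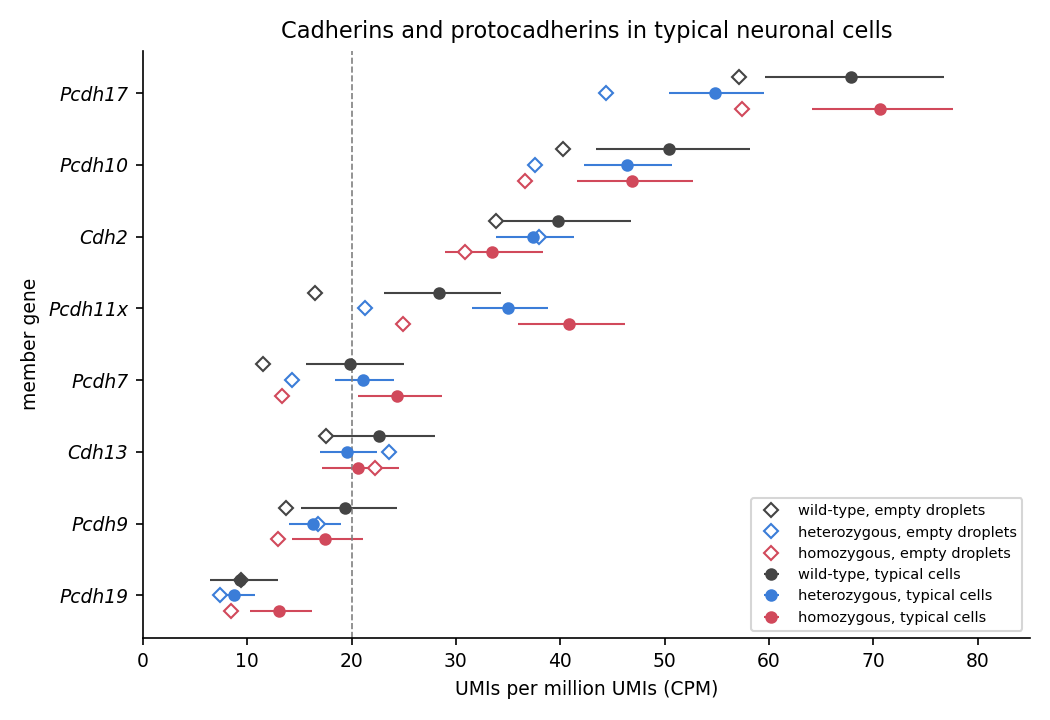
CPM of the 8 members with the highest mean level in typical neuronal cells (circles, exact Poisson 95% intervals) and in empty droplets (diamonds) of each library. The dashed line is at 20 CPM, and Pcdh17 lies between 54.8 and 70.6 CPM in typical cells and between 44.4 and 57.4 CPM in empty droplets.

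Empty droplets carried the same members, several at levels close to those of the cells. Pcdh7 and Pcdh11x lay further above theirs, with means of 21.8 against 13.1 CPM and of 34.7 against 20.9 CPM. Pcdh17 was at 57.1, 44.4 and 57.4 CPM in empty droplets, with the heterozygous library again lowest. Pcdh11x was at 16.5, 21.3 and 24.9 CPM there, in the same order of libraries as in the cells. Among members at 20 CPM or more, typical cells exceeded empty droplets by a median of 1.25, 1.23 and 1.26-fold, against 1.06, 1.01 and 1.03-fold over all genes at that level. For Neurod6, a transcription factor of excitatory neurons, the log2 ratio was 0.77, 0.59 and 0.64. Pcdh11x was above its empty droplets in each library, by 0.78 (0.44 to 1.12), 0.72 (0.46 to 0.99) and 0.71 (0.47 to 0.95) on the log2 scale. Cdh2 was not distinguished from its empty droplets, with log2 ratios of 0.23 (−0.04 to 0.50), −0.02 (−0.24 to 0.20) and 0.11 (−0.14 to 0.36). Nor was Cdh13, with 0.37 (−0.01 to 0.73), −0.27 (−0.56 to 0.02) and −0.11 (−0.42 to 0.20). The part of free RNA in the levels of single members was not tested.

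To ask how deletion of Tbr1 in layer 5 relates to these genes, both mutant libraries were compared with wild-type, and they share that library as control. Wild-type typical cells stood apart in other markers. The sum of 8 meningeal markers was 314, 34.0 and 46.6 CPM in typical cells and that of 5 blood markers 345, 44.6 and 85.8 CPM, and empty droplets held 1013, 403 and 262 CPM of the meningeal markers. Most of that sum was Ptgds, at 292, 25.8 and 38.4 CPM in typical cells and 926, 343 and 221 CPM in empty droplets. The median mitochondrial share of typical cells was 10.4, 15.4 and 12.5%. The part of these differences in the ratios of the members was not tested. None of the 6 members with a mean of at least 20 CPM differed by more than 1.5-fold between homozygous and wild-type typical cells, where 4.87% of all genes at that level did. The same count was 0 of 6 between heterozygous and wild-type cells, with 6.03% of all genes, and 0 of 6 between homozygous and heterozygous cells, with 1.11% (0.673% higher and 0.441% lower). The median log2 ratio of the 6 members was −0.02 for homozygous over wild-type, −0.10 for heterozygous over wild-type and 0.14 for homozygous over heterozygous. Over all genes at that level it was 0.08, 0.06 and 0.01.

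Pcdh11x had the largest ratio of the 6 members, with a homozygous over wild-type log2 ratio of 0.53 (0.19 to 0.87), equal to 1.44-fold, and a heterozygous over wild-type ratio of 0.31 (−0.01 to 0.63). Its level in empty droplets was ordered likewise, as given above. Pcdh17 gave 0.06 (−0.17 to 0.29) for homozygous over wild-type, −0.31 (−0.52 to −0.09) for heterozygous over wild-type and 0.37 (0.18 to 0.55) for homozygous over heterozygous. The heterozygous library thus stood below both others in CPM, while as raw UMIs per cell the last ratio was 0.03. For Cdh2 the ratios were −0.25 (−0.57 to 0.07) in homozygous and −0.09 (−0.37 to 0.20) in heterozygous cells. Pcdh10 gave −0.10 (−0.38 to 0.17) and −0.12 (−0.37 to 0.13), Pcdh7 0.29 (−0.12 to 0.72) and 0.09 (−0.30 to 0.49), and Cdh13 −0.14 (−0.55 to 0.28) and −0.21 (−0.58 to 0.18) for the homozygous and heterozygous libraries. For these 3 genes and Cdh2 every interval held 0, so no difference was detectable at this depth.

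Sums over a family narrow the counting error. The 15 Cdh genes together gave a log2 ratio of −0.03 (−0.22 to 0.16) for homozygous over wild-type, from 603 and 372 UMIs, and of 0.01 (−0.16 to 0.18) for heterozygous over wild-type. The 43 Pcdh genes together gave 0.08 (−0.04 to 0.20) and −0.11 (−0.23 to 0.00). Between the mutant libraries the Pcdh sum was higher in the homozygous one, by 0.19 (0.10 to 0.29), but lower as raw UMIs per cell, at −0.14, where the median of all genes was −0.32. Pcdh17 and Pcdh11x gave 429 and 248 of the 1513 homozygous Pcdh UMIs.

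**Figure D3:**
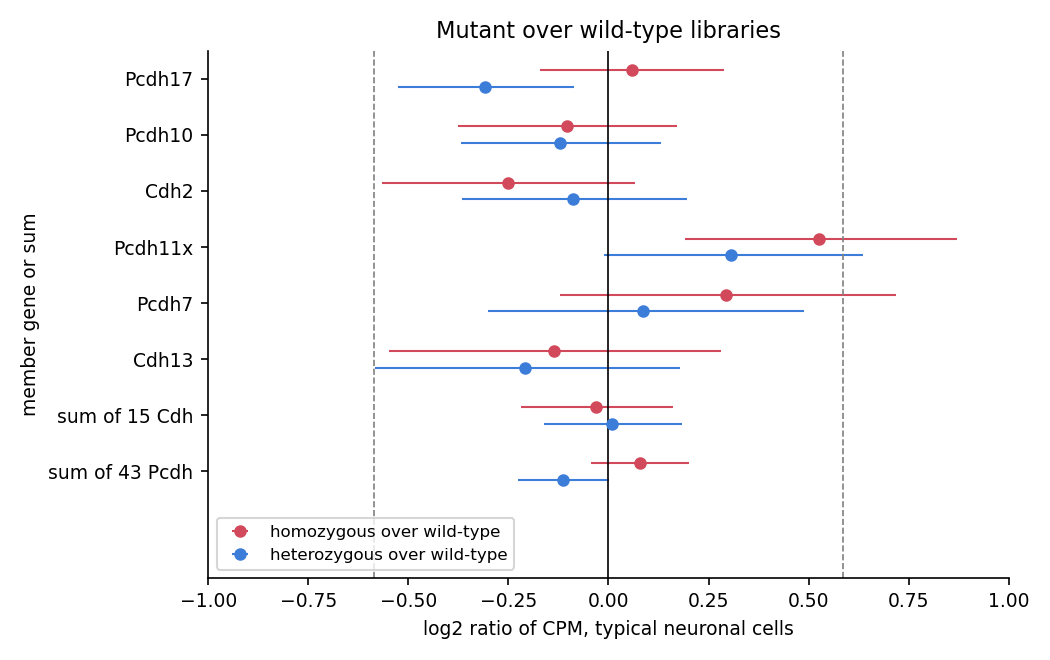
Log2 ratios of CPM in typical neuronal cells for the 6 members at 20 CPM or more and for the sums of 15 Cdh and 43 Pcdh genes, with exact 95% intervals for counting error. Dashed lines mark 1.5-fold, and no point lies beyond them. Both comparisons share the wild-type library.

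The intracellular partners were compared in the same way. Catenins and their adaptors link cadherin tails to actin, and 5 of the 10 in the table were at 20 CPM or more. None of the 5 passed 1.5-fold in any comparison, where 4.87% (homozygous over wild-type), 6.03% (heterozygous over wild-type) and 1.11% (homozygous over heterozygous) of all genes at that level did, so a count of 0 is near the background. Ctnnb1, or beta-catenin, was the most abundant at 204, 172 and 170 CPM, with log2 ratios to the wild-type of −0.25 (−0.37 to −0.12) in heterozygous and −0.26 (−0.40 to −0.12) in homozygous cells. Ctnnd2, or delta-catenin, was at 74.1, 81.8 and 85.1 CPM. Of 10 WAVE complex genes 7 were at 20 CPM or more and 0 passed 1.5-fold, which against the same shares is likewise near the background. Abi1, a subunit of that complex, came closest at 24.5, 35.5 and 36.4 CPM, with log2 ratios of 0.53 (0.20 to 0.88) in heterozygous and 0.57 (0.21 to 0.94) in homozygous cells.

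Of 12 genes for factors that act on clustered protocadherin promoters, 5 were at 20 CPM or more in both comparisons with the wild-type. In homozygous cells 0 of the 5 were higher by over 1.5-fold and 1 lower, where 2.9% and 1.97% of all genes were. In heterozygous cells 0 were higher and 2 lower, against 3.52% and 2.51%. Smc3, a cohesin subunit, was at 42.5, 27.4 and 24.9 CPM. Its log2 ratio was −0.64 (−0.92 to −0.34) in heterozygous and −0.77 (−1.11 to −0.44) in homozygous cells. Smc1a, its partner in the cohesin ring, was at 27.8, 15.5 and 20.4 CPM, past 1.5-fold in the heterozygous library alone. Rad21, another cohesin subunit of the list, was at 46.3, 43.9 and 44.8 CPM. Its log2 ratios of −0.08 (−0.34 to 0.18) in heterozygous and −0.05 (−0.33 to 0.24) in homozygous cells both held 0. Ctcf, which binds these promoters, was at 24.0, 24.3 and 21.1 CPM. Of 7 sheddase genes and of 14 other cadherin superfamily genes in the table, 1 each was at 20 CPM or more and neither passed 1.5-fold.

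Sorted cells outside the neuronal table held more CPM of most members than typical neuronal cells. All members together took 708, 586 and 788 CPM there. The level was higher than in typical cells in all 3 libraries for 44 of 58 members, where 64.8% of all genes were, and lower in all 3 for 1 member, where 13.2% of all genes were. More members were higher than lower under each scaling, but the counts moved, to 34 higher and 4 lower with TMM factors (41.2% and 31.8% of all genes), 35 and 3 with DESeq2 size factors (45.2% and 28.4%) and 48 and 0 as raw UMIs per cell (84.5% and 0.857%). Since the authors made these cell groups by clustering on the same genes, these values are a description. With 20 CPM or more in the higher group of each library, 7 members could be compared. Of these, 1 was at least 2-fold higher outside the neuronal table in every library, where 15.1% of all genes were, and 0 were at least 2-fold lower, where 0.0188% were. Both counts are thus near the background. Neither scaling by TMM factors nor by DESeq2 size factors left a member past 2-fold in every library, and 7.995% and 8.80% of all genes were then at least 2-fold higher.

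That member was Pcdh9 (chr14:93013410-93890679), an adhesion protein of neurons and glia. Outside the neuronal table it was at 60.9 CPM (55.8 to 66.4), 38.0 CPM (32.4 to 44.3) and 49.2 CPM (41.2 to 58.4), above its 19.3, 16.3 and 17.5 CPM in typical cells. It was 3.15, 2.33 and 2.82-fold higher, with intervals on the log2 scale of 1.30 to 2.03, 0.90 to 1.54 and 1.12 to 1.88. Since Pcdh9 was under 20 CPM in the typical cells of every library, it entered the comparison through the cells outside the table alone, and its fold is a description. With TMM factors its log2 ratios were 1.01, 0.77 and 0.94, and with DESeq2 size factors 1.09, 0.87 and 1.05, so that Pcdh9 kept its direction but fell short of 2-fold in at least 1 library. The median log2 ratio of all genes compared was 0.44, 0.21 and 0.31 in CPM, −0.29, −0.29 and −0.30 with TMM factors and −0.21, −0.19 and −0.20 with DESeq2 size factors.

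Cdh2 outside the table was at 125, 70.4 and 117 CPM, and its log2 ratios of 1.65 (1.40 to 1.91), 0.91 (0.69 to 1.13) and 1.81 (1.55 to 2.07) fell short of 2-fold in the heterozygous library. Pcdh17 was at 96.5, 94.9 and 146 CPM, with ratios of 0.51, 0.79 and 1.05, of which the wild-type one became −0.14 with TMM and −0.06 with DESeq2 factors. Pcdh11x gave ratios of 0.22 (−0.11 to 0.56), 0.23 (−0.04 to 0.49) and −0.21 (−0.57 to 0.14), all holding 0, and was below 0 in each library with TMM and DESeq2 factors. Without the heterozygous library 4 members were at least 2-fold higher outside the table, Pcdh9, Cdh2, Cdh5 and Cdh11, where 25.3% of all genes were.

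Cdh5 and Cdh11 were low in typical cells and likewise reached 20 CPM outside the table alone. Cdh5, or VE-cadherin, the adhesion protein of endothelial junctions, was at 1.09, 0.480 and 0.494 CPM in typical cells and at 26.9, 15.7 and 38.7 CPM outside the table. The log2 ratios were 4.63 (3.25 to 6.52), 5.04 (3.74 to 6.70) and 6.29 (4.70 to 8.59), on 4, 5 and 3 UMIs in typical cells. In empty droplets Cdh5 was at 5.41, 4.23 and 3.51 CPM, above its level in typical cells in every library. Cdh11 (chr8:102632095-102785642), a cadherin of mesenchymal cells, was at 7.90, 6.43 and 4.94 CPM in typical cells and at 22.6, 15.5 and 29.7 CPM outside the table.

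The atypical neuronal cells were few, and 3 UMIs there stand for 4.44, 13.9 and 4.03 CPM. Of 5 members that reached 20 CPM in the higher group of each library, 0 passed 2-fold in either direction in all 3 libraries, where 0.977% of all genes were higher and 0.81% lower. Atypical cells of every library had more Pcdh17, at 105 CPM (82.0 to 133), 97.1 CPM (60.1 to 148) and 134 CPM (109 to 163). Its log2 ratios to typical cells were 0.63 (0.23 to 1.02), 0.83 (0.12 to 1.45) and 0.93 (0.60 to 1.24), each below 2-fold. The sum of 8 inhibitory neuron markers was 255, 148 and 162 CPM in atypical and 107, 81.6 and 78.4 CPM in typical cells. Their part in the Pcdh17 ratio was not tested. Cdh2 was lower in homozygous atypical cells, at 13.4 against 33.4 CPM on 10 UMIs and a log2 ratio of −1.32 (−2.40 to −0.41), while the wild-type ratio was 0.25 (−0.35 to 0.81) and the heterozygous 0.44 (−0.57 to 1.30). Cdh13 gave ratios of 0.07 (−0.81 to 0.85), 0.92 (−0.31 to 1.92) and 0.82 (0.16 to 1.43).

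**Figure D4:**
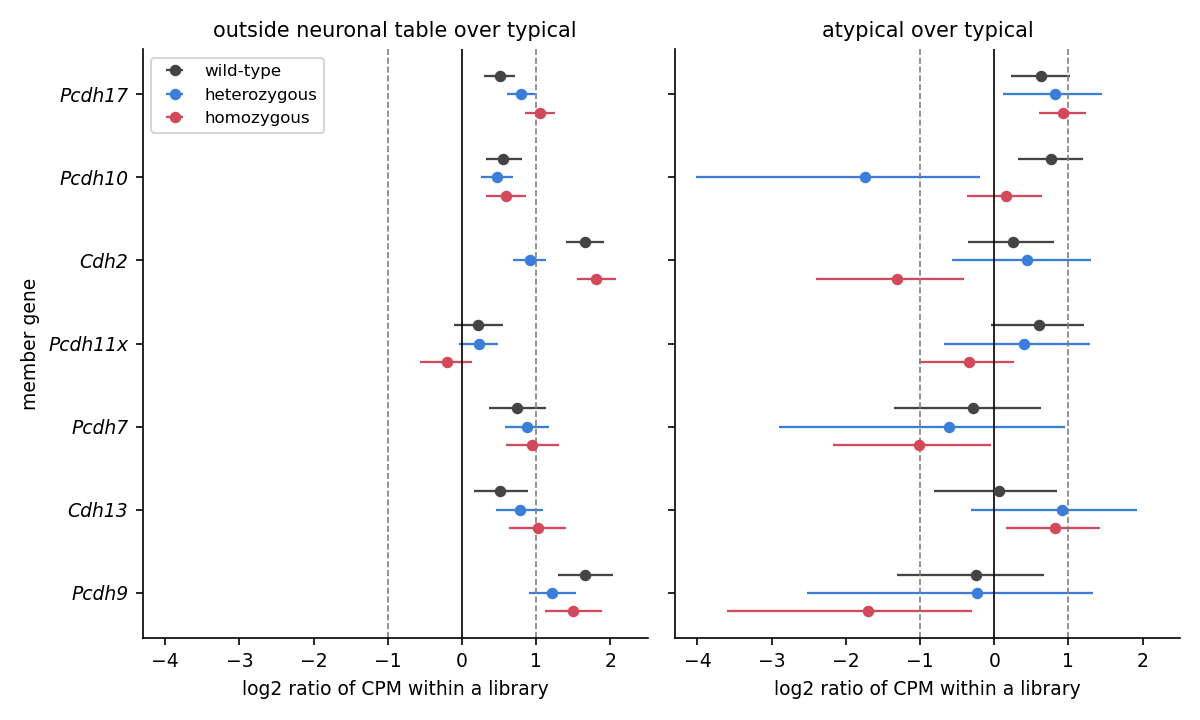
Log2 ratios of CPM within each library, for cells outside the neuronal table over typical cells (left) and atypical over typical cells (right), with exact 95% intervals for counting error. Dashed lines mark 2-fold. Pcdh9 lies beyond 2-fold in each library on the left, which it did not with TMM or DESeq2 factors, and Pcdh17 lies above 0 in each library on the right.

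To see which sorted cells carried which members, cells outside the neuronal table were assigned to marker groups by counting how many of up to 8 markers of a cell type had a UMI. A cell needed at least 3 markers and more than of any other list, and markers above 250 CPM in empty droplets were left out (Nrgn, Cnih2, Aldoc, Fabp7, Apoe and Ptgds). No member was a marker. This gave 76 excitatory neuron-like, 672 inhibitory neuron-like, 826 astroglia-like, 252 oligodendrocyte lineage-like, 655 microglia-like, 572 endothelial-like, 151 mural-like and 124 meningeal-like cells, and 2125 cells stayed in no group. Applied to typical neuronal cells, the same rule would call 111 excitatory neuron-like, 278 astroglia-like and 55 oligodendrocyte lineage-like, and would leave 10587 in no group. The rule thus names few of the typical neuronal cells, and more of them as astroglia-like than as excitatory neuron-like. A group is a range on a count of markers. At the limit of 3 markers lay 58, 297, 314, 101, 134, 35, 20 and 18 cells of these groups in the same order. The values below pool the UMIs of the 3 libraries, and library values follow for the members that stand out.

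Endothelial-like cells carried Cdh5 and Pcdh12. Cdh5 was at 176 CPM (158 to 196) over the libraries and at 163, 171 and 215 CPM by library. The next group was the meningeal-like one at 71.2 CPM, and no library of any other group reached the endothelial-like values. These cells held 344 of the 403 Cdh5 UMIs outside the neuronal table (85.4%). Pcdh12, also known as an endothelial protocadherin, was at 32.3 CPM (24.8 to 41.3) and at 32.8, 46.3 and 20.2 CPM by library. The group held 63 of its 75 UMIs (84.0%), and the next group was mural-like at 5.07 CPM. Pcdh1 was shared by endothelial-like and mural-like cells, at 70.7 and 66.0 CPM. Pcdh19 was at 57.9 CPM (47.7 to 69.6) in endothelial-like cells, and at 49.1, 72.3 and 69.5 CPM by library. In excitatory neuron-like cells it was at 37.5 CPM (19.4 to 65.4), with 60.4, 18.7 and 36.1 CPM on 8, 3 and 1 UMIs. The pooled intervals overlapped, and the opposite order in the wild-type library rested on those 8 UMIs.

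Mural cells wrap the vessels, and mural-like cells carried Pcdh18 (chr3:49743296-49757325) at 180 CPM (141 to 227). By library it was at 190, 122 and 196 CPM, beyond the values of all other groups, of which the meningeal-like was next at 24.5 CPM. Cdh2 was at 137 CPM in mural-like and 136 CPM in endothelial-like cells but at 2.45 CPM in meningeal-like and 22.3 CPM in microglia-like cells. Cdh11 had like levels in meningeal-like cells, at 63.8 CPM (41.7 to 93.5), and mural-like cells, at 60.9 CPM. The meningeal-like group has 124 cells and 26 of the 341 Cdh11 UMIs outside the neuronal table. Cdh11 was also at 43.7 CPM (23.9 to 73.3) in excitatory neuron-like cells. In astroglia-like cells it was at 40.0 CPM, on 101 UMIs.

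Glial groups carried several members that neuron-like cells also held. Cdh13 was at 137 CPM (113 to 164) in oligodendrocyte lineage-like cells, against a 20.9 CPM mean in typical cells, and at 119, 201 and 178 CPM by library. Excitatory neuron-like cells were next at 90.5 CPM (60.6 to 130), with 136, 37.4 and 180 CPM by library, on 18, 6 and 5 UMIs. The pooled intervals overlapped. Pcdh17 was at 197 CPM in oligodendrocyte lineage-like and 193 CPM in astroglia-like cells. The oligodendrocyte lineage-like values of 202, 63.6 and 267 CPM were the highest of all groups in 0 libraries. Pcdh15 (chr10:73099342-74649737), best known from the tip links of hair cells, was at 51.0 CPM (37.1 to 68.5) in this group and at 21.9 CPM in the next. Its library values of 61.6, 42.4 and 7.41 CPM differed widely, and the group had 185, 26 and 41 cells. Cdh20 (chr1:104768529-104995481) was at 29.0 CPM (18.8 to 42.8) on 25 UMIs. Astroglia-like cells led for Pcdh10 at 182 CPM (166 to 200), which was higher there than in the other groups of each library, at 196, 142 and 197 CPM. Cdh2 was at 175 CPM (159 to 192) in astroglia-like and 149 CPM (133 to 167) in inhibitory neuron-like cells, with overlapping intervals. In the heterozygous library astroglia-like cells held 113 CPM of Cdh2, below the 150 CPM of endothelial-like and 127 CPM of inhibitory neuron-like cells. Cdh10 (chr15:18818947-19014236) was at 44.4 CPM (36.5 to 53.4) in astroglia-like cells and was the highest there in 2 of 3 libraries. The wild-type library had 35.8 CPM there against 45.3 CPM, on 6 UMIs, in excitatory neuron-like cells.

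With 3 markers needed, Pcdh9 had its highest pooled levels in neuron-like cells outside the neuronal table. With 4 needed, oligodendrocyte lineage-like cells held 110 CPM, slightly above the 106 CPM of inhibitory neuron-like cells. The values that follow are those with 3 markers. Of the 820 Pcdh9 UMIs outside the neuronal table, excitatory neuron-like cells held 40 (4.88%) and inhibitory neuron-like cells 232. Pcdh9 was at 125 CPM (89.2 to 170) in excitatory neuron-like and 114 CPM in inhibitory neuron-like cells. It was also at 59.0 CPM in astroglia-like cells, 97.4 CPM in oligodendrocyte lineage-like cells (within the excitatory neuron-like interval) and 4.10 CPM in endothelial-like cells. By library it was at 196, 62.4 and 144 CPM in 34, 35 and 7 excitatory neuron-like cells and at 112, 114 and 126 CPM in inhibitory neuron-like cells. In the heterozygous library the excitatory neuron-like value, on 10 UMIs, lay below the inhibitory neuron-like one. It could not be ordered against the 63.6 CPM of the 26 oligodendrocyte lineage-like cells. Pcdh17 in inhibitory neuron-like cells was at 63.7, 226 and 289 CPM, the wild-type library being the lowest. The median excitatory neuron-like cell had 4281 UMIs, against 2344 in the inhibitory neuron-like group. Free RNA and cell doublets were not removed, and their part in these levels was not tested.

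**Figure D5:**
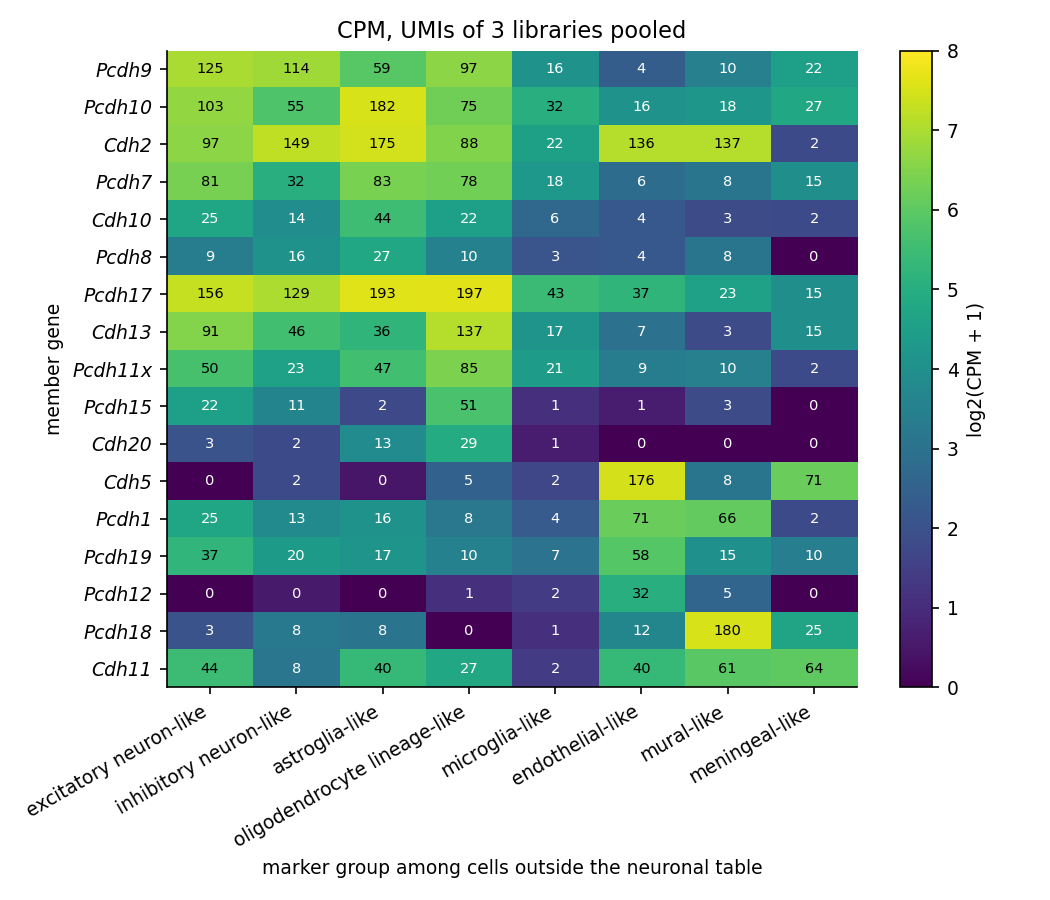
CPM of 17 members in 8 marker groups of cells outside the neuronal table, UMIs of the 3 libraries pooled (numbers in the cells, color on a log2(CPM + 1) scale). Members shown have at least 20 CPM and 20 UMIs in their leading group. Cdh5 reaches 176 CPM in endothelial-like, Pcdh18 180 CPM in mural-like and Pcdh10 182 CPM in astroglia-like cells.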

How the data were processed

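scRNA-seq of tdTomato+ cells of the P5 mPFC was measured in 3 libraries, 1 per genotype, so no test, SD or p-value was computed. Per the labels, reads were aligned to mm10 and UMIs counted by the authors with Cell Ranger 2.0.1. The deposited filtered table holds raw counts of cells that passed cutoffs for mitochondrial UMIs, depth and detected genes, and its mitochondrial column was deposited as a fraction. The deposited neuronal table is on a natural log scale, ln(1 + UMIs per 10000), and was used for its cell and gene names. UMIs were summed per library and cell group and divided by all UMIs of the group. A floor of 20 CPM was put on the mean of 2 libraries, or on the higher cell group, and folds of 1.5 (genotypes) and 2 (cell groups) were counted. Cells with fewest UMIs had 1533, 1188 and 1039 in the wild-type, heterozygous and homozygous libraries. Named members were those at the floor in typical cells, the 10 highest outside the neuronal table, those past a fold and those next to the floor, and other genes were named after their values were seen. Members and lists were chosen with earlier results of these data known. No doublet caller was run. The steps used Python 3.11.15, SciPy 1.17.1, edgeR and DESeq2 (for scaling factors only) and were tested on simulated data. Alternatives were TMM and DESeq2 scaling, raw UMIs per cell, other floors, atypical cells included, cells thinned to 1000 UMIs, a subtracted empty-droplet profile and dropping the deepest 5% of cells. Marker groups with 4 markers, each library left out in turn and homozygous over heterozygous ratios under the alternatives were added after seeing the data.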

Additional observations from a re-analysis of the deposited data

Results flagged for a closer look

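Pcdh10 had ratios of opposite sign between atypical and typical cells in the wild-type and heterozygous libraries, with intervals that did not hold 0. It was picked by a search for this pattern among all members at the floor, in both comparisons of cell groups. The intervals make no allowance for that search, so a difference through counting error is not excluded. For the wild-type its log2 ratio of atypical over typical CPM was 0.77, with an interval from 0.32 to 1.20. The heterozygous ratio was −1.74 (−4.02 to −0.18) and rests on 3 UMIs in 107 cells. The homozygous ratio was 0.16 (−0.36 to 0.64). The difference between genotypes was not tested, since each has 1 library. Atypical cells held 1484, 3278 and 2253 CPM of the 8 excitatory neuron markers in the wild-type, heterozygous and homozygous libraries. The part of this in the Pcdh10 ratios was not tested.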

How the results depend on the processing

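No paired analysis was possible because each genotype has 1 library. Subtraction of the empty-droplet profile was set at 27.2, 8.43 and 17.8% of the UMIs of typical cells in the wild-type, heterozygous and homozygous libraries. It was done for typical cells only. Thinning left out 0 cells. The counts of members past 1.5-fold against the wild-type became 3 of 14 (homozygous, 10.6% of all genes) and 2 of 14 (heterozygous, 11.0%) with a floor of 5 CPM, and 26 of 49 (27.0%) and 21 of 54 (25.5%) with no floor, where homozygous over heterozygous gave 14 of 52 (18.4%). As raw UMIs per cell, 1 of 6 members passed (20.4% of all genes) for homozygous over wild-type, and the sums gave −0.45 for Cdh and −0.34 for Pcdh, while the median of all genes shifted to −0.35. For homozygous over heterozygous the sums then gave −0.37 for Cdh and −0.14 for Pcdh, which reversed. The count of members at least 2-fold lower in typical cells than outside the neuronal table became 0 of 7 with TMM factors (7.995% of all genes) and 0 of 7 with DESeq2 size factors (8.80%), both losing Pcdh9. It was 9 of 10 as raw UMIs per cell (40.4%), 2 of 7 without the cells with the most UMIs (16.0%), 8 of 16 with a floor of 5 CPM (22.01%) and 18 of 47 with no floor (22.3%). It ranged from 1 to 4 when 1 library was left out, and was 4 of 9 without the heterozygous library (25.3%). The counts of members higher or lower outside the neuronal table, at any fold, moved as given above. The other counts and sums kept their value within the limits set. Of 205 ratios of the named members under alternatives, 191 stayed within their counting interval, and 12 of the 14 that moved did so as raw UMIs per cell. Subtraction gave no ratio for Cdh5 and thinning only part of its ratios, since Cdh5 was then at 0 UMIs in at least 1 library. Thinning moved Pcdh10, homozygous over wild-type, to −0.44 and Cdh13 to 0.33. With 4 markers, 14 of 17 leading levels stayed within their interval, and Pcdh9 in excitatory neuron-like cells moved to 176 CPM, on 16 UMIs in 18 cells. The leading group itself changed for some members. Astroglia-like cells then led for Pcdh17 (219 against 197 CPM in the former leading group) and excitatory neuron-like cells for Pcdh19 (66.0 against 60.4 CPM). Oligodendrocyte lineage-like cells led for Pcdh7 (99.2 against 93.8 CPM) and mural-like cells for Pcdh1 (75.5 against 73.2 CPM). Depth limits members under 5 CPM, 43 of the 58, for which single libraries could not be compared.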

Other observations

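Cdh15 and Cdh4 lay below the floor in typical cells and were chosen after their values were seen. Cdh15, the cadherin of muscle satellite cells, was at 3.81, 10.2 and 8.89 CPM in typical cells of the wild-type, heterozygous and homozygous libraries. The log2 ratios to the wild-type were 1.42 (0.61 to 2.34) for the heterozygous and 1.22 (0.35 to 2.18) for the homozygous library. Empty droplets of the same libraries held 3.60, 9.86 and 7.81 CPM. Cdh4, or R-cadherin, was at 8.72, 4.51 and 3.46 CPM in typical cells, with log2 ratios of −0.95 (−1.63 to −0.25) and −1.33 (−2.20 to −0.50). Outside the neuronal table it was at 23.1, 9.96 and 7.14 CPM, and empty droplets held 4.81, 4.34 and 4.82 CPM.

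Cdh7 and Cdh9, classical cadherins of restricted neuron types, were low. In the inhibitory neuron-like group Cdh7 was at 13.8 CPM (9.17 to 19.9) over the libraries and at 9.75, 20.3 and 23.2 CPM by library. Cdh9 was at 14.3 CPM (9.57 to 20.5) there and at 4.498, 38.0 and 26.6 CPM by library. Excitatory neuron-like cells held 2 UMIs of each gene, both in the wild-type library, where that is 15.1 CPM and above the inhibitory neuron-like value.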
